A study of Mus musculus and synthetic construct with 33 samples.

Results

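The segment of mouse chromosome 17 that lies between the linc-p21 (Trp53cor1) gene and the centromere was examined for differences in RNA between organs of embryos that carried the gene and organs of embryos that lacked it. Its members were the genes whose start lay from position 4078961 to 28078960 on chromosome 17 (mm10), which is 1 to 25 Mb below the start of Trp53cor1 at position 29078961. This left 392 of 26754 genes, after 21 of the 413 genes of the window were set aside by symbol (Rnps1, Rps2, Hmga1, Nkx2-5, Abca3, Cldn6, Igf2r, Airn and the Prss and Tps genes). The rule for members uses position and symbol and no measured value, but the window and the symbols set aside were picked with earlier results of these data known. Of the 392, 342 were protein coding, 23 were long intergenic noncoding RNAs, 15 antisense RNAs, 10 processed transcripts and 2 pseudogenes.

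The study sequenced polyA RNA of mouse organs at embryonic day E14.5 of the mutant strain Trp53cor1tm1.1Vlcg, wild type (WT) or knockout (KO), on the background labelled 129S6/C57BL/6 (N3, no Neo). WT and KO groups held 3 libraries each in heart, in hindlimb and in lung, and 5 WT against 4 KO libraries in liver, each group of both sexes. The 27 libraries came from 17 embryos of 7 litters, and 10 embryos gave more than 1 organ, so the organs are not independent. The authors deposited 1 pooled value per gene, genotype and organ, in FPKM (fragments scaled by transcript length and by library size), so no replicate spread accompanies any value and the depth is unknown. The organs were tabulated separately, so a level set beside that of another organ carries no test. A gene was called where the authors' test of KO against WT had a q-value (p adjusted over all genes tested in that organ) under 0.05. Which strain's DNA each embryo carried along the chromosome was not measured here, so the mutation and strain DNA linked to it cannot be told apart. In whole organs, fewer cells of a type and less RNA per cell cannot be told apart either.

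Proximal mouse chromosome 17 is known for the t-complex, a segment inherited as a block in some wild mice, with genes of sperm and of the axoneme, the moving core of a cilium. It also carries clusters of receptor genes of the vomeronasal organ and of zinc finger genes, many of which encode repressors of mobile DNA elements. Ift140 encodes a subunit of the intraflagellar transport complex that carries cargo back from the tip of a cilium. Meiob encodes a single-stranded DNA binding protein of meiotic recombination, Zscan10 a zinc finger transcription factor of pluripotent cells, and the Dcpp genes encode secreted proteins of glands.

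The promoters of Ift140, Zscan10 and the 3 Dcpp genes are shown because the differences between WT and KO described for these genes are among the largest of the flank. Each sequence runs from 250 bases before to 50 bases after a RefSeq gene start (assembly GRCm38.p6, C57BL/6J, plus strand), and a promoter was found for 269 of the 392 members. Capitals mark matches, on either strand, to the CCAAT box (named by its letters), the GC box (GGGCGG) and the GATA motif (GATAA), which overlap nowhere in these windows. The TATA box (TATAAA) was also searched and has no match in these 5 windows. Neither has the E-box (CACGTG). The Ift140 promoter lies at chr17:25015836-25016135, that of Zscan10 at chr17:23600576-23600875, and those of Dcpp1, Dcpp2 and Dcpp3 at chr17:23880626-23880925, chr17:23898472-23898771 and chr17:23917208-23917507.
Ift140: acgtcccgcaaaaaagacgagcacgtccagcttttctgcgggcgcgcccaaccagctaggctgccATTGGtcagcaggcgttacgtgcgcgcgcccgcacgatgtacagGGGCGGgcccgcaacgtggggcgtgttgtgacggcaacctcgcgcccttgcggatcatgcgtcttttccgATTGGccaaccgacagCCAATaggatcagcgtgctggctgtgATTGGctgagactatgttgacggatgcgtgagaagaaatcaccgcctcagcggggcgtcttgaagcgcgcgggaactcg
Zscan10: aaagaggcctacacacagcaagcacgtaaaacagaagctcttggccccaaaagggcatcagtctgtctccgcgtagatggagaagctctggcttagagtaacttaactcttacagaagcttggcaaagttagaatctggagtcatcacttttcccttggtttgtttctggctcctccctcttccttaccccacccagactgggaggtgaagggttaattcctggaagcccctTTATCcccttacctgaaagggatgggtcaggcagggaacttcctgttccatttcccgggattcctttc
Dcpp1: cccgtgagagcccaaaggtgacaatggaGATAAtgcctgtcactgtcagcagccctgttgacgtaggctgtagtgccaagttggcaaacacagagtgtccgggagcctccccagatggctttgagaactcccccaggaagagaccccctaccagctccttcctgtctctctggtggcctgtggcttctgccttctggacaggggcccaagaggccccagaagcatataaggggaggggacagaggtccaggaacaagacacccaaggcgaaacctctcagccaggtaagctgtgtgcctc
Dcpp2: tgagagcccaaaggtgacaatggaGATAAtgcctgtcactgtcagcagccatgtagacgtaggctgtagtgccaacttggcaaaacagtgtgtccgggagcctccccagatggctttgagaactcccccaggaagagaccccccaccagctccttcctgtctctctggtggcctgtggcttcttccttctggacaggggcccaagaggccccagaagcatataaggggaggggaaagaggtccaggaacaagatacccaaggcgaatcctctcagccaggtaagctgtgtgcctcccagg
Dcpp3: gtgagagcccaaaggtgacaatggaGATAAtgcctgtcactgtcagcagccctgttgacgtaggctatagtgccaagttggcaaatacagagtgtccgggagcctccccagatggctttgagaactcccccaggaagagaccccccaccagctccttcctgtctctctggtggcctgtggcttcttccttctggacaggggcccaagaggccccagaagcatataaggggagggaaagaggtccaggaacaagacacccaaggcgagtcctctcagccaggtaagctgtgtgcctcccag
The Ift140 window is 62.3% GC with 35 CpG dinucleotides and holds 4 CCAAT boxes and 1 GC box. A CCAAT box is present in 37.4% of all 32851 RefSeq promoters of the same length, and a GC box in 35.7%. The Zscan10 window and each Dcpp window hold 1 GATA motif, as do 25.4% of all promoters, while a TATA box is present in 13.6% of them and an E-box in 7.15%. The 3 Dcpp promoters are nearly the same sequence: Dcpp1 and Dcpp2 share 93.8% of aligned positions, Dcpp1 and Dcpp3 95.1%, and Dcpp2 and Dcpp3 96.4%. Reads of such copies may be assigned to the wrong member, so the 3 genes are best read together. In the annotation the authors used, the Dcpp2 model starts 4 bases after Dcpp1 and spans it, while the RefSeq promoter of Dcpp2 lies further inside that model.

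The targeted gene Trp53cor1 was between 0.0351 and 0.852 FPKM in the WT organs and at 0 in each KO organ but lung, where it was 0.00505. It was called in heart and hindlimb and was not tested in liver and lung, where WT was only 0.0351 and 0.104 FPKM. All 5 listed markers of each labelled organ were above 0 in both genotypes of that organ, and none was called in its own organ. A value above 0 does not by itself tell organs apart. All 5 heart markers were also above 0 in WT lung, and the hindlimb marker Tbx4 was 19.3 FPKM in WT hindlimb and 63.5 in WT lung. Of the 392 members, 204 were tested by the authors in all 4 organs, 77 in 1 to 3 organs and 111 in none, and 54 were listed at 0 in all 8 values. The 44 vomeronasal and olfactory receptor genes were not tested in any organ, and their highest WT value was 0.00505 FPKM, for Vmn1r232 in liver, while Vmn1r224, for example, was listed at 0 in all 8 groups. Of the 7 formyl peptide receptors, which sense bacterial peptides on white blood cells, 2 were tested in liver, where Fpr2 was 2.57 in WT and 3.50 FPKM in KO and Fpr1 1.63 and 1.82. At the other end, Rps10, a ribosomal protein, was the most abundant member, at 881 FPKM in WT and 1060 in KO heart and 1886 and 1495 in lung, and was called in no organ. Neither were Tcp1, a chaperonin subunit, at 330 and 351 FPKM in heart, nor Tceb2, an elongin subunit, at 375 and 419.

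In all, 20 members were called in at least 1 organ, 19 of them in 1 organ and 1 in 2. The heart calls were 4 of 243 tested members (1.65%), against 0.228% of all genes tested there. All 4 were listed at 0 in WT heart, and 3 of them were the Dcpp copies. The hindlimb calls were 9 of 260 (3.46%, all genes 0.623%), and the liver calls 6 of 225 (2.67%, all genes 0.406%). Of the hindlimb calls, 4 lay in 1 array of repeated genes, Tmem181 and Dynlt1, described below. Copies that resemble one another are counted separately in these shares. The lung calls were 2 of 226 (0.885%, all genes 0.707%). The lung share was near that of all genes and the other 3 were above it. The lung part of this rests on the symbols set aside. With them kept, the calls rose in every organ, to 7 in lung, 14 in hindlimb, 9 in liver and 5 in heart. The direction differed by organ. All 4 heart calls and all 9 hindlimb calls were higher in KO, where 0.0717% and 0.272% of all genes were called higher and 0.156% and 0.351% lower. In liver 3 were higher (all genes 0.301%) and 3 lower (all genes 0.105%), and in lung both were lower (all genes 0.619%, with 0.0884% higher). For the flank of the same width on the telomere side, with 516 genes, the called shares, in the same order of organs, were 1.05%, 0.993%, 3.14% and 2.11%. The difference between the flanks was not tested. It also depends on the symbols set aside, since the centromere-side counts were larger in every organ with them kept.

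**Figure D1:**
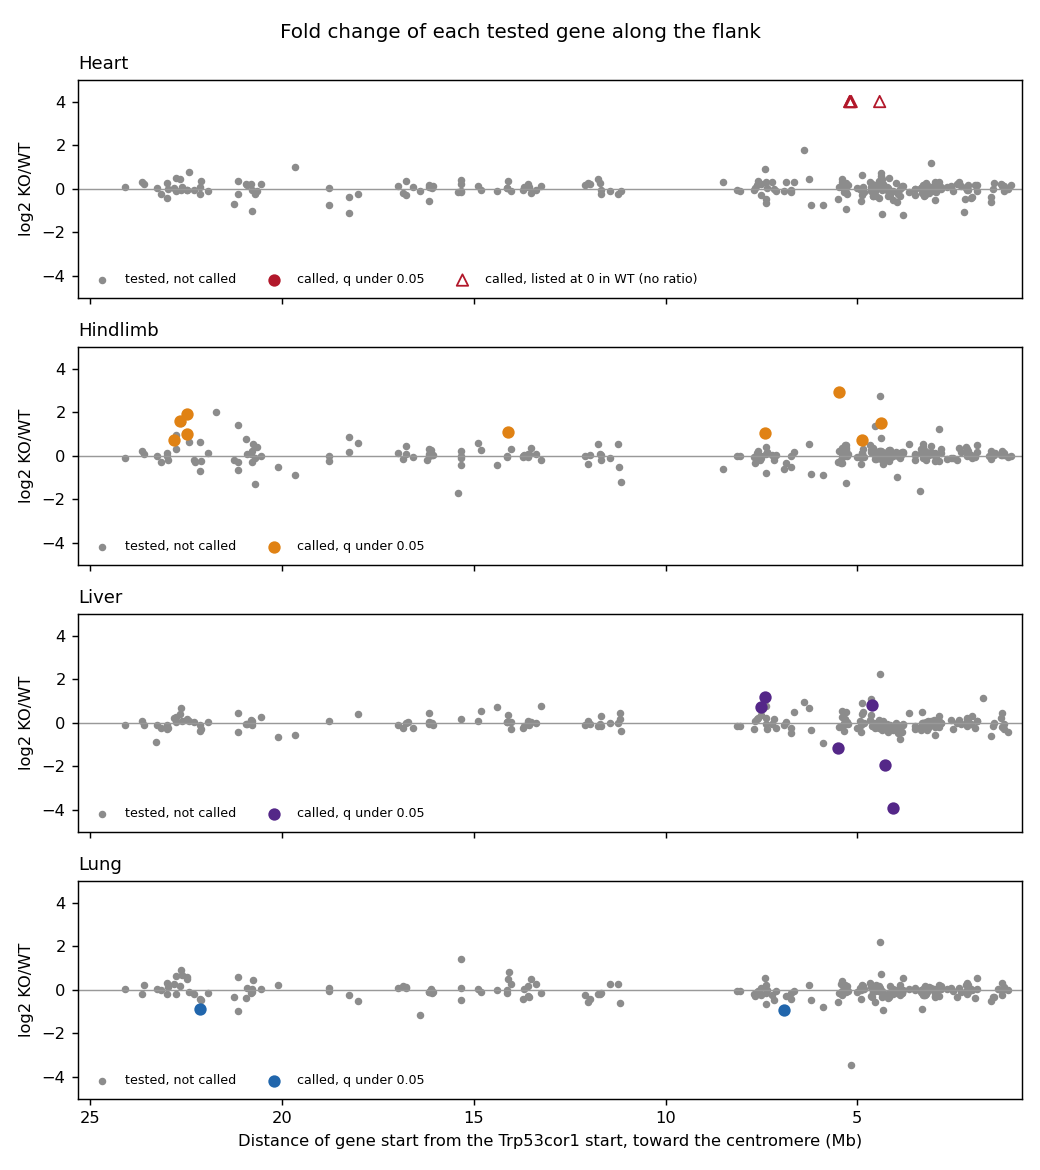
Log2 of KO over WT FPKM, as deposited, of every tested member above 0 in both genotypes against the distance of its start from the start of Trp53cor1 (in Mb), 1 panel per organ. Large points are called genes, and open triangles at the top of the heart panel are the 4 genes listed at 0 in WT, 3 of which lie almost at one place. Called genes stand at both ends of the flank, 1 of them lies between 9 and 21 Mb, and Zfp943 is not drawn.

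Below an unadjusted p of 0.05 the flank held 21 heart values (8.64%, all genes 2.95%) and 36 hindlimb values (13.8%, all genes 5.97%). It held 28 liver values (12.4%, all genes 2.79%) and 22 lung values (9.73%, all genes 4.68%). The same shares on the other chromosomes were 2.75%, 5.76%, 2.42% and 4.49%, and on the telomere side 6.64%, 7.28%, 9.06% and 8.42%. The median shift of the flank was small in every organ, although its members leaned to one side, which was not tested. The median log2 fold change of its tested members in the authors' deposited table was 0.03 for heart, 0.05 for hindlimb, -0.04 for liver and -0.04 for lung, beside medians over all tested genes of -0.0142, 0.0101, -0.00296 and -0.000754. By position, 149 members lay at 1 to 5 Mb, of which 118, 121, 111 and 110 were tested in heart, hindlimb, liver and lung. They held 1, 2, 3 and 0 calls. At 5 to 9 Mb lay 97 members, with 43, 48, 39 and 40 tested and 3, 2, 3 and 1 called. The shares of all tested genes called in these organs were 0.228%, 0.623%, 0.406% and 0.707%. Of the 113 members from 9 to 21 Mb, 57, 63, 51 and 51 were tested in the 4 organs, and 1 was called, in hindlimb (1.59% of those tested, beside 0.623% of all genes). The 33 members farthest from the locus, at 21 to 25 Mb, held 4 calls in hindlimb (28 tested) and 1 in lung (25 tested). In that last stretch 12 of 28 tested members had an unadjusted p under 0.05 in hindlimb, and none of 24 in liver. No gene at the window's edges was called in any organ. In WT and KO hindlimb the outermost members Arid1b, a chromatin remodeler subunit, and Tmem242 were 13.5 and 12.4, and 71.3 and 82.2 FPKM. Tfb1m, just outside, was 9.56 and 9.16 (Nox3, next to it, was listed at 0). At the locus side Gm15598 was 2.73 and 2.64, and 4930526A20Rik 0.404 and 0.400, while the next genes outside, Tcp11 and Scube3, were 0.488 and 0.852, and 12.3 and 15.0 FPKM.

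**Figure D2:**
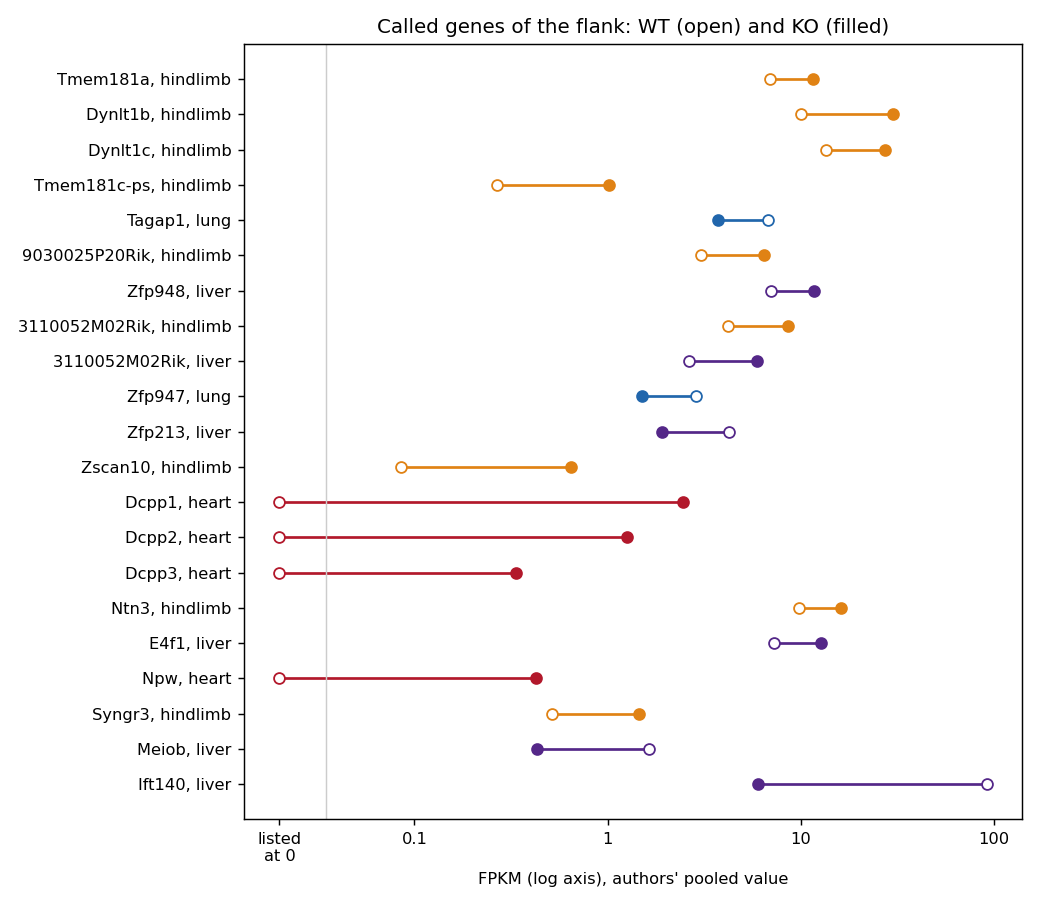
WT (open) and KO (filled) FPKM, on a log axis, of the 20 called members in each organ where they were called, in chromosome order from the centromere side down. Colors give the organ, values of 0 are drawn at the left edge, and no error can be given because each value is pooled. Ift140 in liver spans 91.8 to 6.01 FPKM, and the 4 heart genes start from a WT value of 0.

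Ift140 fell in liver and in no other organ was it called. Its level was 91.8 FPKM in WT liver and 6.01 in KO liver, a fall of 15.3-fold (q = 0.0140 in the authors' deposited table). It was 5.95 and 5.51 FPKM in WT and KO heart, 7.39 and 7.77 in hindlimb, and 9.44 and 8.31 in lung. WT liver thus stood apart from the other 7 values, which lay between 5.51 and 9.44 FPKM, and KO liver lay among them. The gene (ENSMUSG00000024169.9) is on the plus strand of chromosome 17 from 25016091 to 25099495, 4.06 Mb below Trp53cor1, and no annotated exon of another gene overlaps its exons. Meiob, whose start lies 212 kb nearer the centromere, also fell in liver, from 1.64 to 0.429 FPKM, a fall of 3.81-fold (q = 0.0140 in the authors' deposited table). It was listed at 0 in WT heart and WT hindlimb, at 0.0251 and 0.154 FPKM in the KO of these organs, and at 0.0208 and 0.0999 in WT and KO lung, so that liver was its highest organ in both genotypes.

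The genes around Ift140 differed in liver in the same direction but by far less. Within 0.25 Mb of its start, a distance chosen after the values were seen, 20 other members were tested in liver and all 20 were lower in KO, 8 of them at an unadjusted p under 0.05, with Meiob the only one called. In the flank as a whole 137 tested members were lower in KO liver and 88 higher. Within 0.5 Mb it was 30 of 34. In the same 0.25 Mb, 11 of 18 tested members were lower in KO heart, 8 of 19 in hindlimb and 14 of 18 in lung. The liver values of those that were not called ranged in the authors' deposited table from a log2 fold change of -0.74 for Unkl, at 23.7 and 14.2 FPKM, to -0.01 for Tmem204, at 4.60 and 4.57. Clcn7, a lysosomal chloride transporter, was 8.97 and 6.41 FPKM, and Cramp1l, which starts next to Ift140 on the other strand, 7.21 and 5.76. Hagh, a glyoxalase, was 59.0 and 55.1, Nme3, a nucleoside diphosphate kinase, 65.6 and 60.1, and Eme2, a DNA repair nuclease subunit, 12.6 and 10.2 FPKM.

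**Figure D3:**
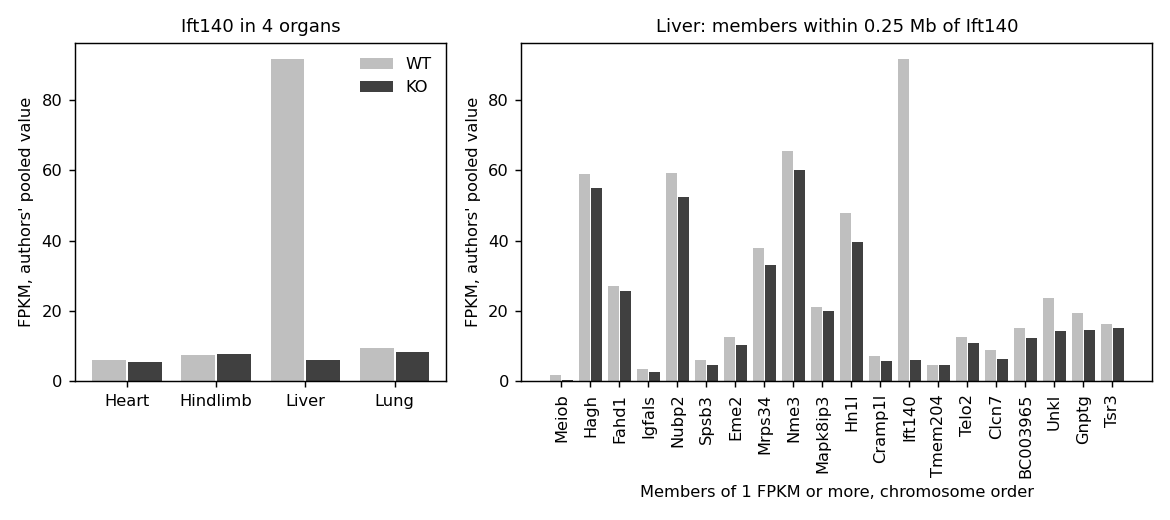
Left, Ift140 in FPKM in WT (light bars) and KO (dark bars) of each organ. Right, liver FPKM in both genotypes of Ift140 and the 19 other members of at least 1 FPKM within 0.25 Mb of it, in chromosome order, without error bars because each value is pooled. WT liver is the only tall Ift140 bar, at 91.8 FPKM, and every neighbor drawn has a lower dark bar than light bar.

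The other liver calls were higher in KO, apart from Zfp213, which is described with the zinc finger genes. E4f1, a zinc finger transcription factor and ubiquitin ligase that acts on p53, was 7.29 FPKM in WT and 12.8 in KO liver, a rise of 1.75-fold (q = 0.0140 in the authors' deposited table). It was 8.84 and 8.85 FPKM in heart, 10.6 and 11.5 in hindlimb and 9.28 and 9.89 in lung, so that only in liver did the genotypes stand apart. Dnase1l2, a deoxyribonuclease gene next to it, was 1.29 and 2.72 FPKM in liver and was not called (q = 0.172 in the authors' deposited table). Markers of other tissues moved in the same KO livers: 4 of 6 pancreatic enzyme genes were called higher (summed 10.9 to 56.7 FPKM, Pnlip at 0 in WT), as were 3 of 4 smooth muscle genes (23.7 to 37.9), 2 of 5 simple epithelium genes (154 to 176) and 2 of 4 epidermal genes (1.89 to 5.06). The part of these cells in the flank's liver values was not tested. The 5 liver markers summed to 22083 FPKM in WT and 24225 in KO, and none was called.

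In heart the called genes were those of low abundance that were read in KO and not in WT. The KO heart value was 2.47 FPKM for Dcpp1, 1.26 for Dcpp2 and 0.337 for Dcpp3, and the WT heart value of each was 0 (q = 0.0256 for each in the authors' deposited table). All 3 were listed at 0 in both genotypes of hindlimb and of liver. In lung Dcpp1 was 0.398 in WT and 0.390 in KO, Dcpp2 0.124 and 0.433, and Dcpp3 0.721 and 0.0661 FPKM, with none called. The 3 copies therefore were read in lung of both genotypes, without a common direction, and in heart of KO alone. Of the 24 other members within 0.25 Mb of Dcpp1, 14 were tested in heart, and only Dcpp2 and Dcpp3 were called. Hcfc1r1, a regulator of host cell factor, was 278 and 378 FPKM, and Tnfrsf12a, the receptor for the cytokine TWEAK, 90.9 and 111, both uncalled.

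Npw, which encodes the peptide neuropeptide W, was the other heart call, at 0 in WT and 0.426 FPKM in KO (q = 0.0256 in the authors' deposited table). It was 0.0789 and 0.520 FPKM in hindlimb, 0.0837 and 0.394 in liver, and 0.119 and 0.539 in lung. Its KO value was thus above its WT value in all 4 organs, at levels under 1 FPKM, although only heart was called in the authors' deposited table. In the same KO hearts 2 of 5 red cell genes and 2 of the 4 tested liver genes were called lower, with summed levels, from WT to KO, of 5119 to 2837 and of 18.9 to 4.30 FPKM. Their part in the heart values was not tested.

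Hindlimb calls included a group at the far end of the flank. The Tmem181 and Dynlt1 genes lie there in a repeated array of about 385 kb, from Tmem181a to Dynlt1f, with 9 members. Dynlt1 encodes a light chain of dynein, the motor that moves cargo along microtubules, and Tmem181 a membrane protein. Dynlt1b rose from 9.97 to 29.9 FPKM (3.00-fold) and Dynlt1c from 13.5 to 27.2 (2.01-fold), with q = 0.0123 and q = 0.0481 in the authors' deposited table. Tmem181a rose from 6.93 to 11.5 FPKM (1.66-fold) and Tmem181c-ps from 0.268 to 1.02 (3.80-fold), with q = 0.0355 and q = 0.0123 in the authors' deposited table. All 9 were higher in KO hindlimb, 8 at an unadjusted p under 0.05. The uncalled members were the 2 models named Tmem181b-ps, at 4.53 and 13.2 and at 2.10 and 5.93 FPKM, Gm26848 at 2.55 and 4.88, Dynlt1f at 9.34 and 14.46, and Dynlt1a at 5.42 and 6.62.

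No gene of the array was called in the other organs. The median log2 fold change over the array in the authors' deposited table was 1.01 in hindlimb, beside 0.51 in lung, 0.19 in liver and 0.01 in heart. In lung 7 of the 9 were higher in KO, for example Dynlt1c at 26.8 and 38.1 FPKM and the more abundant Tmem181b-ps model at 11.3 and 18.1. In liver all 8 tested were higher. In heart 5 were higher and 4 lower, with Dynlt1f at 6.92 and 11.8 and Dynlt1c at 13.4 and 13.0 FPKM. Because the copies resemble one another, and the sources used here do not state how the authors assigned reads that match several copies, the split among them is uncertain. The 9 members centromeric of the array, from Arid1b to Tulp4, did not share the direction: 3 of 8 tested were higher in KO hindlimb and 5 lower, none called. Just beyond it, Ezr, the membrane linker ezrin, was 33.6 and 29.4 FPKM in WT and KO hindlimb, and Rsph3b, a radial spoke protein of the axoneme, 1.52 and 2.36.

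**Figure D4:**
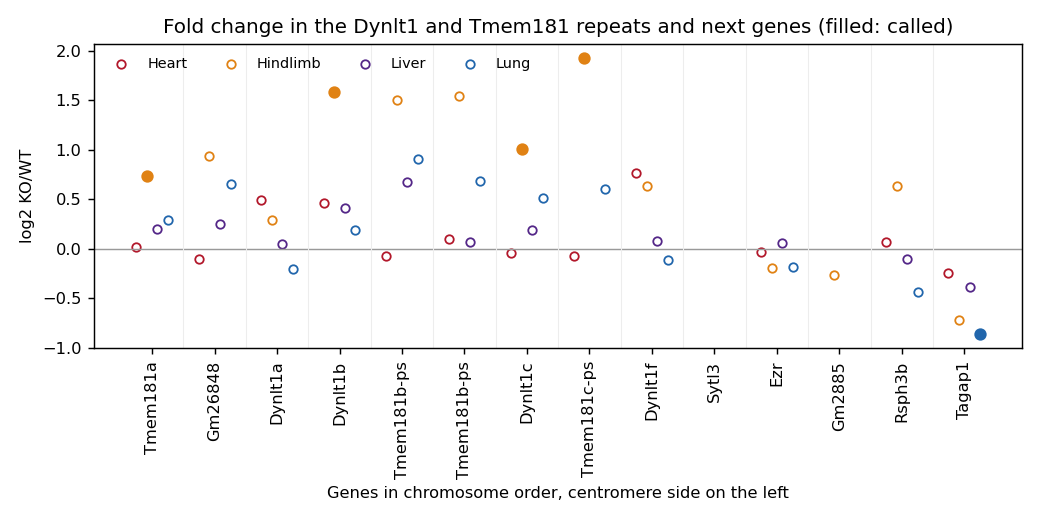
Deposited log2 of KO over WT FPKM in the 4 organs for the 14 members from Tmem181a to Tagap1 in chromosome order. Filled points are called, open points were tested and not called, and untested values are left out. The 9 hindlimb points from Tmem181a to Dynlt1f all lie above 0, from 0.29 to 1.93, and Tagap1 lies below 0 in all 4 organs.

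Tagap1, a GTPase-activating protein gene of lymphocytes, lies past the array, with 4 members between them, and went the other way. It fell in lung from 6.76 to 3.71 FPKM, by 1.82-fold (q = 0.00845 in the authors' deposited table). It was 2.36 and 1.99 FPKM in heart, 4.28 and 2.60 in hindlimb, and 3.05 and 2.32 in liver, so KO was below WT in each organ. Its relative Tagap, named after its values were seen, was above WT in all 4 KO organs without a call, for example at 0.695 and 1.84 FPKM in hindlimb and at 1.68 and 2.49 in lung. Reads of the 2 genes may be exchanged where their sequences agree. Rsph3a, another radial spoke gene, was 2.80 and 1.41 FPKM in lung, without a call (q = 0.749 in the authors' deposited table). WT lungs carried heart muscle RNA that KO lungs had little of: all 5 of the listed heart muscle genes were called lower in KO lung, with a summed level of 834 FPKM in WT and 55.3 in KO, and Nppa was listed at 0 in KO. The part of that tissue in the lung values of the flank was not tested.

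The remaining hindlimb calls were spread over the flank and were all higher in KO. Zscan10 rose from 0.0855 to 0.646 FPKM, by 7.56-fold (q = 0.0123 in the authors' deposited table). Its levels elsewhere were under 0.5 FPKM and were not tested: 0.0254 and 0.00397 in heart, 0.0126 and 0.0498 in liver, and 0.240 and 0.470 in lung. Of the 19 other members within 0.25 Mb of Zscan10 that were tested in hindlimb, none was called. Among these neighbors, Flywch2 was 16.2 and 22.9 FPKM and Kremen2, a receptor of Wnt antagonists, 14.53 and 16.6. Syngr3, a synaptic vesicle protein gene, rose from 0.512 to 1.45 FPKM, by 2.84-fold (q = 0.0123 in the authors' deposited table). Ntn3, a netrin, rose from 9.72 to 16.2 FPKM, by 1.67-fold (q = 0.0417 in the authors' deposited table). Exons of Ntn3 overlap those of BC028777 on the opposite strand and of Tbc1d24 on its own strand, and the library kit does not keep the strand, so its reads cannot be fully separated from theirs. Ntn3 was also above WT in KO heart, at 1.18 and 1.86 FPKM, liver, at 0.874 and 1.65, and lung, at 8.01 and 9.41. The predicted gene 9030025P20Rik, the 1 called gene between 9 and 21 Mb, rose from 3.02 to 6.42 FPKM, by 2.12-fold (q = 0.0123 in the authors' deposited table), and was 2.25 and 2.92 in heart, 3.67 and 4.68 in liver, and 5.12 and 7.17 in lung. In the same KO hindlimbs all 4 neutrophil genes were called lower (summed 20.3 to 6.50 FPKM), as were 2 of 5 skeletal muscle genes (1222 to 817), while 2 of 5 red cell genes were called higher (410 to 812). Their part in the flank's hindlimb values was not tested.

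A cluster of zinc finger genes lies from 5.48 to 8.07 Mb below the locus. Its genes around 3110052M02Rik, which RefSeq names Zfp983, were mostly higher in KO. That gene was the 1 member called in 2 organs, with a rise from 4.198 to 8.52 FPKM in hindlimb (2.03-fold, q = 0.0123) and from 2.63 to 5.92 in liver (2.25-fold, q = 0.0140) in the authors' deposited table. It was 2.47 and 4.59 in heart and 2.99 and 4.37 in lung, so KO exceeded WT in each organ. Its neighbor Zfp948, 90.5 kb away, rose in liver from 6.96 to 11.6 FPKM, by 1.67-fold (q = 0.0140 in the authors' deposited table), and was 7.78 and 8.93 in heart, 10.5 and 10.3 in hindlimb, and 11.2 and 11.98 in lung.

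Toward the locus the sign changed. Of the 7 zinc finger genes from Zfp947 to Zfp213, all 7 were lower in KO lung, 6 in KO heart, 6 in KO liver and 5 in KO hindlimb. Zfp213 fell in liver from 4.23 to 1.90 FPKM, by 2.23-fold (q = 0.0140 in the authors' deposited table). It was 6.73 and 4.83 in heart, 6.61 and 5.35 in hindlimb, and 8.76 and 5.95 in lung, and its exons overlap those of Gm26695 on the opposite strand. Zfp947 fell in lung from 2.87 to 1.51 FPKM, by 1.90-fold (q = 0.0163 in the authors' deposited table), beside 2.59 and 2.43 in heart, 2.56 and 1.68 in hindlimb, and 1.36 and 1.25 in liver. Zfp40 was lower by a similar amount everywhere without a call, at 5.14 and 3.08 FPKM in heart, 5.24 and 2.86 in hindlimb, 2.18 and 1.16 in liver, and 7.71 and 4.49 in lung. Zfp945 was 16.0 and 9.41 in heart, 18.3 and 10.3 in hindlimb, 3.82 and 2.99 in liver, and 18.2 and 13.1 in lung. Zfp946, which lies among them, did not follow: it was higher in KO heart, hindlimb and liver, by log2 fold changes of 0.32, 0.18 and 0.51 in the authors' deposited table, and at -0.06 in lung. In the 6 genes from Zfp160 to Zfp52, on the other side, none was called in any organ and no gene differed by more than 0.37 on the log2 scale of the authors' deposited table. Zfp943 was left out, since its deposited log2 fold change of 3.13 in hindlimb in the authors' deposited table does not follow from its FPKM of 8.66 and 8.39.

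**Figure D5:**
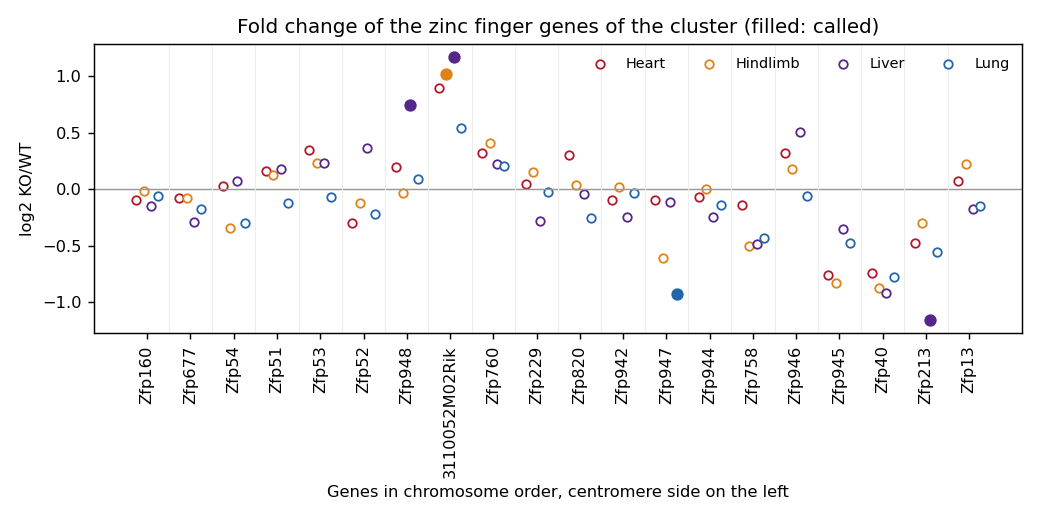
Deposited log2 of KO over WT FPKM in the 4 organs for 20 zinc finger genes from Zfp160 to Zfp13 in chromosome order, filled where called. Points of 3110052M02Rik lie between 0.55 and 1.17 in all 4 organs, and those of Zfp40 between -0.92 and -0.74. Points of the first 6 genes lie within 0.37 of 0.

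Several members differed in one direction in every organ. Among 189 members tested in 4 organs with at least 1 FPKM, 3 were higher in KO by at least 0.3 on the log2 scale in every organ (Tagap, 9030025P20Rik, 3110052M02Rik) and 4 were lower (Zfp945, Zfp40, Zfp213, Amdhd2), which is 3.7% of them. Of these 7, 9030025P20Rik, 3110052M02Rik and Zfp213 are called genes. The same share was 1.95% of 205 genes on the telomere side and 0.066% of 10605 on other chromosomes, and some organs share embryos. Amdhd2, an enzyme of amino sugar breakdown, was 12.4 and 8.56 FPKM in heart, 10.6 and 8.10 in hindlimb, 12.6 and 9.42 in liver, and 11.5 and 8.55 in lung, and was called in none. Since organs can share embryos, only the pairs of organs with no embryo or litter in common were set side by side. Between heart and lung, 91 of 203 tested members had the same sign (44.8%, Spearman 0.01), beside 34.1% on other chromosomes, and between hindlimb and lung 115 of 204 did (56.4%, Spearman 0.49), beside 53.6%. Among larger differences the shares were higher. Between heart and lung, all 14 members that differed by at least 0.3 in both had the same sign, where on other chromosomes 92 of 304 did (30.3%). Between hindlimb and lung it was 22 of 25 (88%), where on other chromosomes it was 219 of 324 (67.6%). On the telomere side it was 8 of 10 and 13 of 13. These shares are descriptions, and neighboring genes are not independent points.

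The calls were also counted by functional group. Of 18 genes of cilia and the axoneme, 13 or 14 were tested in each organ. The calls were Dynlt1b and Dynlt1c in hindlimb, 2 of 14 tested (all genes 0.623%), and Ift140 in liver, 1 of 13 (all genes 0.406%). Dynlt1b and Dynlt1c are dynein light chain copies of the same array, with an uncertain split of reads, so their calls are best read together. The median log2 fold change of this list was 0.07, 0.23, -0.05 and -0.18 in heart, hindlimb, liver and lung in the authors' deposited table. Its most abundant member Nme4, a mitochondrial nucleoside diphosphate kinase, was 38.3 and 43.8 FPKM in heart and 55.8 and 44.9 in lung. Of 11 genes of meiosis and the germ line, at most 3 were tested in an organ. Zscan10 was called in hindlimb (1 of 3 tested, all genes 0.623%) and Meiob in liver (1 of 3 tested, all genes 0.406%). The t-complex gene Tcte2 was 1.27 and 1.15 FPKM in heart. Of 9 genes of the Dcpp and secreted list the 3 Dcpp genes and Npw were called, all in heart, where 6 were tested (all genes 0.228%); the list was drawn up with the Dcpp calls known. In it, Rnaset2a, a secreted ribonuclease, was 1.06 and 1.83 FPKM in hindlimb. The zinc finger list was picked by symbol, so it holds Zfp943 but not 3110052M02Rik (Zfp983 in RefSeq), which is counted as noncoding or predicted. The 24 genes of this list held 1 call of 24 tested in hindlimb (Zscan10, all genes 0.623%). In liver 2 of 23 tested were called (Zfp948 and Zfp213, all genes 0.406%), and in lung 1 of 22 (Zfp947, all genes 0.707%). The abundant member Zfp598, which acts on stalled ribosomes, was 20.2 and 21.6 FPKM in lung. No gene of the 18 of growth signaling and the mTOR pathway was called, and 3, all lower in KO, had an unadjusted p under 0.05 in heart. One of the 3 was Tsc2, a brake on mTOR, at 16.1 and 12.1 FPKM in WT and KO heart. The most abundant of the list, the ubiquitin ligases Traf7 and Stub1 were 74.3 and 70.3, and 74.7 and 77.1 in heart. All 30 genes of mitochondria and metabolism were tested in each organ, with 22 higher in KO heart, 22 higher in hindlimb, 21 lower in liver and 23 lower in lung. The flank as a whole leaned the same way in each, with 129 of 239 higher in heart and 160 of 260 in hindlimb. In liver 137 of 225 were lower, and in lung 135 of 226. Over all genes these counts were 7207 of 15323, 8666 of 16520, 7261 of 14272 and 7376 of 14703. In the mitochondria and metabolism list, the calls were Ntn3, a netrin, in hindlimb and E4f1, a transcription factor, in liver, neither a metabolic enzyme. The list held 1 call of 30 tested in each of these organs (all genes 0.623% and 0.406%). Its abundant members Ndufb10, a complex I subunit, and Uqcc2, a complex III assembly factor, were 229 and 238, and 167 and 191 FPKM in heart, and 108 and 86.2, and 177 and 135 in lung.

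None of 28 genes of transcription and RNA handling was called in any organ. Nor was any of the 21 transport and liver-type genes, among which Plg, plasminogen, was 190 and 195 FPKM in WT and KO liver, and Pigq, of lipid anchor synthesis, 257 and 233. In the 10 muscle and heart genes no member was called, and the cardiac calcium channel gene Cacna1h was 17.1 and 15.3 FPKM in heart and 8.16 and 12.03 in hindlimb, and Capn15, a calpain, 4.61 and 4.80 in heart. Of 25 genes of development and patterning only Syngr3 in hindlimb was called (1 of 23 tested there, all genes 0.623%), and it encodes a synaptic protein. Qk, an RNA-binding protein of splicing, was 81.7 and 84.1 FPKM in heart and 62.0 and 61.2 in hindlimb, and Bak1, a cell death effector, 40.7 and 30.5 and 29.1 and 30.1. Snhg9, a noncoding host of a small nucleolar RNA, was listed at 0 in KO lung and at 0.870 FPKM in WT lung, without a test, and its exons overlap those of Rps2 on the opposite strand. The 85 genes of the noncoding and predicted list, also picked by symbol, held 2 calls in hindlimb, of 43 tested (all genes 0.623%). These were 9030025P20Rik and the zinc finger gene 3110052M02Rik. They held 1 in liver (3110052M02Rik), of 30 tested (all genes 0.406%). The most abundant members of this list, Gm8186 and 2610019E17Rik, were 189 and 186, and 51.7 and 47.2 FPKM in liver. The largest uncalled differences in heart, among members of at least 1 FPKM in both genotypes, were those of Snhg9, at 2.67 and 1.21 FPKM, 4930506C21Rik, at 3.19 and 1.60, and Gm17728, at 1.03 and 2.05. Gm17728 was 1.99 and 1.06 in hindlimb, the opposite direction. In liver, Gm9805 was 1.53 and 2.95 FPKM.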

How the data were processed

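TRIzol was used to extract the organs and a TruSeq RNA v2 kit, which does not keep the strand, to build the libraries, per the labels. Software credited in the submitters' processing notes comprises TopHat2 and CASAVA 1.8.2, with mm10 as the genome. For each organ the authors deposited, per the file headers, 1 FPKM value per gene and genotype, pooled over its libraries, with a p-value and q-value for each tested gene. A log2 fold change (KO over WT) was deposited by the authors too, and was handled as a score because some untested genes exceed the range of a log2 value. The program that made these is not stated in the sources read here. No count of reads was given, so no library was fitted here, and a call is the authors' q-value under 0.05.

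Members and gene lists were chosen with earlier results of these data known. Genes named are the 4 given markers, all called members, the 3 largest uncalled differences per organ among members of 1 FPKM or more, the 2 most abundant of each list, the 3 most abundant of all, the genes at the window edges and members listed at 0 in 1 genotype and at 0.5 FPKM or more in the other. Others are named as neighbors or as repeats of these. Folds were computed from the deposited FPKM, and none is given against 0. The smallest p-value deposited by the authors was 5e-05 in each organ, so q-values at that limit (0.0256, 0.0123, 0.0140 and 0.00845) do not rank genes. The adjustment was checked on simulated data. Promoters came from RefSeq (GRCm38.p6). Counts were made with Python 3.11.15, pandas 2.3.3 and numpy 2.4.6, alignments with biopython 1.88 and plots with matplotlib 3.10.9. The reporter assay of the series, with 6 libraries, was not analysed here.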

Additional observations from a re-analysis of the deposited data

How the results depend on the processing

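The calls are the authors' own, and how their test used the single libraries is not stated in the sources read here. The deposited FPKM is 1 pooled value per genotype, so leaving out single libraries and a replicate block could not be run. For the same reason no spread, depth or counting limit can be given. No paired analysis was possible because the deposited organ tables hold 1 pooled value per genotype. The labels give litters, and 2 litters gave both genotypes of lung, 3 those of heart, 3 those of liver and 1 those of hindlimb. At q under 0.10 the counts of called members stayed within 1.5 times of 4, 9, 6 and 2 (heart, hindlimb, liver, lung). Adjusting over genes of 1 FPKM or more left 2 calls in heart, since Dcpp3 and Npw were then not tested. Asking for a log2 fold change of at least 1 left 0 in lung. A window of 1 to 20 Mb left 5 in hindlimb and 1 in lung, because it has no Tmem181 and Dynlt1 genes and no Tagap1. Keeping the symbols set aside gave 14 in hindlimb and 7 in lung. With a pseudocount of 1 FPKM, 20 of 183 fold changes of named genes were labelled as moved. The pseudocount changed the sign of 1 of these, Zfp943 in hindlimb, uncalled, from 3.13 to -0.04, whose deposited fold change does not follow from its FPKM. The label leaves out called genes of low abundance whose log2 fold changes also shrank, with the sign kept. In hindlimb, Zscan10 went from 2.92 to 0.601 and Tmem181c-ps from 1.93 to 0.671. In liver, Meiob went from -1.93 to -0.883.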
